A study of Mus musculus with 4 samples.

Results

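The neurons described here were layer 5 neurons of the mouse ventromedial prefrontal cortex that the authors labelled L5-S100b, compared by how much viral barcode transcript each one carried. They were selected on the unique molecular identifiers (UMIs, each counting 1 captured RNA molecule) of a single row of the count tables, named barcode. A neuron with 5 or more barcode UMIs was called barcode-high and one with 0 was called barcode-zero. Of 9368 excitatory neurons, 1409 carried the L5-S100b label, and 958 of these were barcode-high, 195 barcode-zero and 256 in between, with 1 to 4 barcode UMIs. The comparison therefore covered 1153 neurons. Since the barcode UMIs chose the groups, they are described and not tested, and the row was left out of every sum. The boundary is a step in a continuous range, with 53 neurons at 4 barcode UMIs, just outside, and 41 at 5, just inside.

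All neurons came from male C57BL/6 mice injected at 8 weeks of age with rAAV2-retro viruses, which enter axon endings and are carried back to the cell body. Each virus carried EGFP with its own short barcode under a CAG promoter, and in each mouse a separate barcode marked each of 5 targets on 1 side, namely the LH (lateral hypothalamus), BLA (basolateral amygdala), MD (mediodorsal thalamus), DMS (dorsomedial striatum) and AI (agranular insula). The prelimbic and infralimbic areas were dissected. Unsorted libraries 1, 2 and 3 were made from 1 mouse each, and the sorted library from EGFP-sorted cells pooled from 3 other mice. No uninjected animal was analysed here. Both groups of neurons came from each of the 4 libraries, with 270 barcode-high and 74 barcode-zero neurons in unsorted library 1, 242 and 43 in unsorted library 2, 239 and 54 in unsorted library 3, and 207 and 24 in the sorted library. The barcode row does not name the injected target, so the groups say nothing of where an axon ended. A barcode-zero neuron may lack the virus or carry it below detection, and the 24 in the sorted library had passed a gate on EGFP.

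Deep-layer cortical neurons fall into classes that differ in where their axons go. Intratelencephalic neurons stay within the cortex, striatum and amygdala, extratelencephalic neurons of layer 5 reach the brainstem and hypothalamus, and corticothalamic neurons of layer 6 reach the thalamus. Transcription factors such as Fezf2, Bcl11b, Tbr1 and Cux2 mark and help to set these classes, and cadherins, neuropilins and ephrins are among the surface molecules with which their axons find a path.

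Each library held between 54749198 and 87841541 UMIs in all, and between 1603 and 2816 excitatory neurons. No cell barcode sequence was shared between libraries among the L5-S100b neurons. Of the 4 label genes, S100b, a calcium-binding protein, and Deptor were highest in this subtype. The mean of S100b over the unsorted libraries was 51.8 CPM (counts of the gene scaled to a common total) in L5-S100b and from 0.988 to 12.4 CPM in the other 6 subtypes, and that of Deptor, an mTOR-binding protein, was 153 CPM against 7.57 to 49.9 CPM. Etv1, a layer 5 transcription factor, was at 424 CPM and was exceeded only by L5-Htr2c, at 915 CPM. Sulf2, a sulfatase, was at 83.0 CPM and did not set the subtype apart, with values up to 138 CPM elsewhere.

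Barcode-high neurons were also the more deeply sampled. Their median total was 25594 UMIs in unsorted library 1, 27516 in unsorted library 2, 29015.0 in unsorted library 3 and 34387 in the sorted library, against 19308, 23553, 22676 and 28187 UMIs in the barcode-zero neurons of the same libraries. The order was the same in all 4 libraries. In the whole subtype, 44 of 195 barcode-zero neurons held under 10000 UMIs, and 8 of 958 barcode-high neurons did. Deeper sampling and more viral transcript went together in these neurons, and their parts in the results cannot be told apart fully from these counts.

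**Figure D1:**
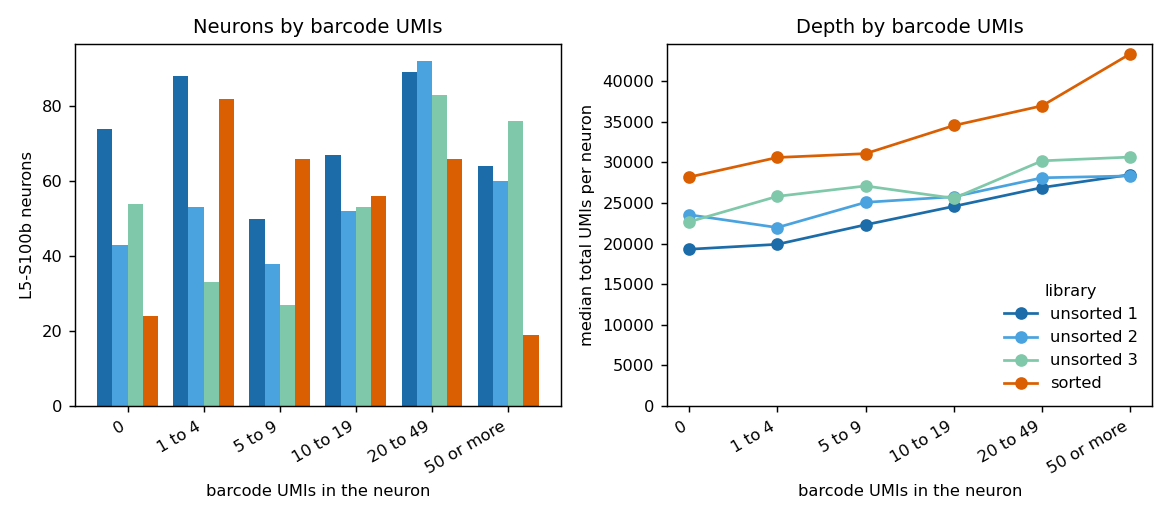
Left, number of L5-S100b neurons (vertical axis) in each range of barcode UMIs (horizontal axis), with 1 bar for each library. Right, the median total UMIs per neuron in the same ranges, with 1 line for each library. The sorted library holds 24 neurons at 0 and the deepest neurons throughout, and the medians at 50 or more barcode UMIs lie above those at 0 in each of the 4 libraries.

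The main comparison asked which genes differed between neurons of 1 subtype that carried much barcode transcript and those that carried none. Barcode-high neurons had more Pcp4, Deptor, Ptn, Nptx2, Serpine2, S100b and Inf2, and less Cdh13, Gpx3, Npy2r, Dcn, Nrp2, Efnb3 and Adcyap1. Of these, S100b was not called by DESeq2 or with neurons matched on total UMIs. The largest change among genes with the same direction in every library was the loss of Dcn, at -2.84 on the log2 scale. Genes listed as markers of layer 5 extratelencephalic neurons were called in both directions, and none of the tested genes of oxidative phosphorylation or ribosomal proteins was called. Counts were summed over the neurons of each library and group and compared with edgeR's quasi-likelihood test with the library as a block. Calls needed a value below 0.05 in the p adjusted by Benjamini-Hochberg and 0.5 or more, up or down, in the log2 fold change, which is given ± SE throughout.

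Of 11477 genes tested, 310 were called, which is 2.7% of them. There were 126 higher genes (1.1%) and 184 lower genes (1.6%), and over all genes the median of the log2 fold changes was -0.004. The direction was the same in 4 of 4 libraries for 286 of the 310. The values of the 4 libraries did not overlap between the groups for 217 of the called genes, and for 802 (6.99%) of all genes tested. Without unsorted library 2, 178 genes were called, and when barcode-high neurons were matched to barcode-zero neurons on total UMIs, 141 of 8982 genes were called, 112 of which were among the 310. Matching kept only 74, 43, 54 and 24 barcode-high neurons in unsorted libraries 1 to 3 and the sorted library, equal to the barcode-zero numbers. It changed the number of neurons as well as their depth, so a call lost on matching cannot be put down to depth alone. DESeq2 called 145, and edgeR without the library block called 56. Summed counts cannot separate fewer neurons that express a gene from less RNA in each.

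Among the lower genes, Cdh13 (ENSMUSG00000031841, chromosome 8, 118283733-119324921, GRCm38) had the smallest adjusted p. It encodes T-cadherin, a cell-adhesion molecule held in the membrane by a lipid anchor. In barcode-zero neurons it stood at 148, 184 and 158 in unsorted libraries 1 to 3 and 248 in the sorted library, in CPM, and in barcode-high neurons at 50.5, 48.5, 51.0 and 75.7 in the same order. The groups did not overlap, and the log2 fold change was -1.70 ± 0.08, adjusted p 1.11e-15. A UMI of Cdh13 was found in 57.9% of barcode-zero and 36.0% of barcode-high neurons, although the latter were deeper, and in 26.2% of L5-Htr2c neurons, the lowest share of any subtype, at a median of 14555 UMIs. Thinned to 10000 UMIs per neuron, the expected shares were 53.4% and 23.3%.

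Dcn (ENSMUSG00000019929, chromosome 10, 97479609-97518143), which encodes the matrix proteoglycan decorin, was at 14.0, 10.9, 4.91 and 11.8 CPM in the barcode-zero neurons of unsorted libraries 1 to 3 and the sorted library. The barcode-high values were 1.59, 1.53, 0.440 and 2.29 CPM, all below every barcode-zero value. Its log2 fold change was -2.84 ± 0.35, adjusted p 1.28e-06 on 41 UMIs in each group, and 15 barcode-zero neurons carried them, 1 of them 22.0%. Gpx3 (ENSMUSG00000018339, chromosome 11, 54902453-54910377), a secreted glutathione peroxidase, went from 16.5, 15.3, 25.5 and 34.2 CPM to 4.33, 3.99, 7.18 and 5.12 CPM, again without overlap, a log2 fold change of -2.12 ± 0.23, adjusted p 1.57e-07.

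Npy2r (ENSMUSG00000028004, chromosome 3, 82538383-82548084), the Y2 receptor for neuropeptide Y, was at 11.6, 25.1, 6.87 and 11.8 CPM in barcode-zero neurons and at 3.32, 2.76, 3.22 and 4.31 CPM in barcode-high neurons. The groups did not overlap, and the log2 fold change was -1.99 ± 0.31, adjusted p 5.49e-05. A UMI was found in 15.9% of barcode-zero and 5.74% of barcode-high neurons, and in 0.550% of L6-Syt6 neurons, where the gene is close to absent at a median of 23998 UMIs per neuron. Brinp3, of a neural family induced by bone morphogenetic protein and retinoic acid, went from 14.9, 26.2, 38.3 and 28.9 CPM to 9.95, 7.67, 7.03 and 9.15 CPM, with no overlap and a log2 fold change of -1.65 ± 0.23, adjusted p 6.90e-06.

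Cux2 (ENSMUSG00000042589, chromosome 5, 121856366-122050102), the homeobox factor of upper-layer neurons, was the least even of the strong losses. Barcode-zero neurons held 28.9, 3.27, 11.8 and 3.94 CPM and barcode-high neurons 4.04, 1.69, 2.20 and 2.56 CPM, so that unsorted library 1 stood apart and the groups overlapped. The log2 fold change was -2.19 ± 0.33, adjusted p 2.99e-05, and without unsorted library 1 it was -1.58 and not called. Only 19 of 195 barcode-zero neurons had a Cux2 UMI (9.74%), against 4.49% of barcode-high neurons, 91.9% of L2/3-Calb1 neurons and 1.49% of L6-Syt6 neurons, a class that should lack it.

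The other 6 of the 12 lowest genes had log2 fold changes from -1.94 to -1.61. They were Npr3, a clearance receptor for natriuretic peptides (-1.94 ± 0.33, SE), Cabp7, a calcium-binding protein (-1.79 ± 0.42), Drd2, the D2 dopamine receptor (-1.72 ± 0.39), Csrp2, a LIM-domain protein (-1.71 ± 0.24), Ston2, an endocytic adaptor (-1.66 ± 0.42), and Ece2, a peptide-processing protease (-1.61 ± 0.46). Cabp7, Drd2, Ston2 and Ece2 rested on 17 to 25 UMIs in the barcode-zero neurons, and Ece2 overlaps another counted gene on its strand. In barcode-zero neurons, 41 of 195 (21.0%) had a UMI of at least 4 of the 12 lowest genes, and 51 had none. In barcode-high neurons 73 of 958 (7.62%) had at least 4 and 452 had none, a description of genes chosen on this contrast. No call was made for Ston2 (-1.66) and Ece2 (-1.89) without unsorted library 1, for Drd2 (-1.52), Ston2 (-1.36) and Ece2 (-1.50) without unsorted library 2, for Ece2 (-1.52) without unsorted library 3 and for Cabp7 (-1.60) and Ece2 (-1.54) without the sorted library, the value in brackets being the log2 fold change then. Matching on total UMIs ended the call of Csrp2 (-0.93, adjusted p 0.171).

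Pcp4 (ENSMUSG00000090223, chromosome 16, 96467606-96525793), a small calmodulin-binding protein, led the higher genes by adjusted p. It stood at 554, 414 and 685 in unsorted libraries 1 to 3 and 471 in the sorted library, in CPM, in barcode-zero neurons and at 1145, 1144, 1249 and 982 CPM in barcode-high neurons. Each barcode-high value exceeded every barcode-zero value, and the log2 fold change was 1.10 ± 0.06, adjusted p 3.89e-14. The share of neurons with a Pcp4 UMI was 65.1% and 92.0%, or 62.2% and 87.1% expected after thinning, against 28.0% in L2/3-Calb1 neurons at a median of 19083 UMIs.

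Deptor (ENSMUSG00000022419, chromosome 15, 55112317-55259271) was at 101, 79.6, 79.5 and 131 CPM in barcode-zero and 194, 163, 170.1 and 286 CPM in barcode-high neurons, with no overlap and a log2 fold change of 1.05 ± 0.08, adjusted p 3.28e-11. Ptn (ENSMUSG00000029838, chromosome 6, 36714929-36810220), the secreted growth factor pleiotrophin, was at 247, 167, 223 and 156 CPM and 405, 396, 429 and 227 CPM. It was higher in 4 of 4 libraries, with a log2 fold change of 0.87 ± 0.07, adjusted p 1.33e-09, but its groups overlapped, the sorted library being lowest in both. S100b (ENSMUSG00000033208, chromosome 10, 76253853-76261159) went from 18.2, 43.6, 11.8 and 35.5 CPM to 55.7, 63.0, 64.9 and 47.8 CPM with no overlap, a log2 fold change of 1.16 ± 0.18, adjusted p 5.12e-05. A UMI of S100b was found in 21.0% of barcode-zero, 51.1% of barcode-high and 2.15% of L6-Npy neurons. With neurons matched on total UMIs its log2 fold change was 0.47 and was not called. DESeq2 did not call S100b either (1.23, adjusted p 0.173).

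Nptx2 (ENSMUSG00000059991, chromosome 5, 144545902-144557478), a secreted pentraxin that clusters AMPA receptors, was at 26.4, 26.2, 24.5 and 30.2 CPM in barcode-zero neurons and 64.6, 51.5, 60.8 and 67.8 CPM in barcode-high neurons, a log2 fold change of 1.20 ± 0.13, adjusted p 1.64e-07. Serpine2 (ENSMUSG00000026249, chromosome 1, 79794197-79861180), a secreted protease inhibitor, was at 18.2, 12.0, 11.8 and 10.5 CPM and 38.9, 31.9, 36.9 and 33.9 CPM, a log2 fold change of 1.40 ± 0.18, adjusted p 1.78e-06. Inf2 (ENSMUSG00000037679, chromosome 12, 112588784-112615557), a formin that remodels actin, was at 14.9, 10.9, 17.7 and 14.5 CPM and 41.5, 35.7, 37.5 and 35.8 CPM, a log2 fold change of 1.38 ± 0.17, adjusted p 1.28e-06. For these 3 genes the groups did not overlap.

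The 12 genes with the highest log2 fold changes were mostly sparse. Arhgap25, a GTPase-activating protein, rose by 2.32 ± 0.35 (SE) with 10 UMIs in the barcode-zero neurons, and Ccnb1, cyclin B1, by 2.22 ± 0.35 with 13. Pbld1 (2.14 ± 0.60), Ly6g6e (2.10 ± 0.61), Hs3st1, a heparan sulfate sulfotransferase (1.99 ± 0.47), Ntn5, a netrin (1.96 ± 0.58), Ighg2c, an immunoglobulin constant-region gene (1.91 ± 0.41), Fbxo32, a ubiquitin ligase subunit (1.77 ± 0.54), and Drd5, the D5 dopamine receptor (1.50 ± 0.42), had between 4 and 9 UMIs there. For genes this sparse the fitted size depends on few molecules. Fam19a2, a secreted chemokine-like protein, rose by 1.36 ± 0.22. Leaving out 1 library ended the call for Pbld1 (2.06), Ly6g6e (2.64), Ighg2c (1.55), Fbxo32 (2.13) and Drd5 (1.68) without unsorted library 1, for Ly6g6e (1.72), Hs3st1 (1.85), Ntn5 (1.45), Fbxo32 (1.79) and Drd5 (1.85) without unsorted library 2, for Pbld1 (1.87), Ly6g6e (1.60), Hs3st1 (1.74), Ntn5 (1.56), Fbxo32 (1.33) and Drd5 (1.23) without unsorted library 3 and for Pbld1 (1.76), Ntn5 (1.94), Fbxo32 (1.85) and Drd5 (1.36) without the sorted library.

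**Figure D2:**
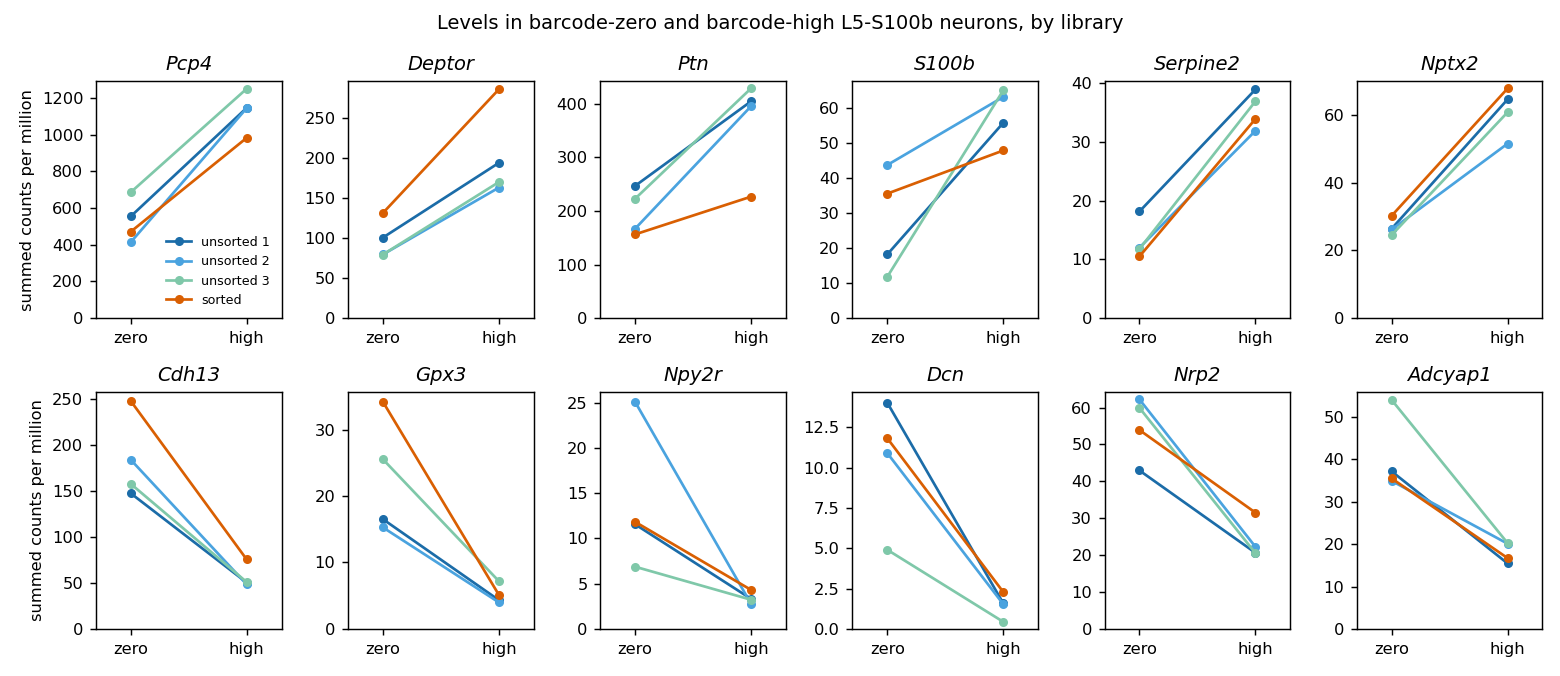
Level in CPM of summed counts (vertical axis, from 0) of 12 genes in barcode-zero and barcode-high L5-S100b neurons (horizontal axis), with 1 line for each library. The upper row holds genes that were higher and the lower row genes that were lower in barcode-high neurons, and each line runs in the same direction in all 4 libraries.

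Calls went in both directions among extratelencephalic, corticothalamic and upper-layer intratelencephalic markers, but not in every list. The layer 5 intratelencephalic list had higher calls only, and the list with claustrum-like markers had lower calls only. Of 8 layer 5 intratelencephalic markers tested (11 listed), S100b, Deptor and Ptn were higher and none was lower, with a list median of 0.47 against -0.004 over all genes. S100b and Deptor are label genes of the subtype. Etv1 was higher by 0.48 ± 0.08 (SE, adjusted p 5.46e-05), which is under the limit of 0.5 for a call.

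Among 10 layer 5 extratelencephalic markers tested (14 listed), 2 were higher and 3 lower, and the median was -0.15. With neurons matched on total UMIs, 6 of these markers were tested, 3 were called and the median turned to 0.14. Pcp4 was higher. Between subtypes it was at 278 CPM in L5-Bcl6, 1046 CPM in L5-S100b and 2317 CPM in L6-Syt6, whereas Pou3f1 of the same list was highest in L5-Bcl6, at 293 CPM. Pcp4 was thus no specific extratelencephalic marker here. Fezf2, the factor that specifies subcerebral projection neurons, was also higher, at 62.6 ± 5.91 CPM against 43.5 ± 5.89 CPM (mean ± SD, 4 libraries). Its log2 fold change was 0.54 ± 0.12, adjusted p 0.00377. Fezf2 was not called by DESeq2 (0.54, adjusted p 0.0792) or among neurons with 15000 to 45000 total UMIs (0.48). Bcl11b, which encodes CTIP2 and acts downstream of Fezf2, was lower, at 26.8 ± 0.610 CPM against 44.3 ± 11.4 CPM and -0.72 ± 0.14, adjusted p 0.00135. The groups did not overlap for either factor. The test no longer gave a call for Bcl11b (-0.59) and Bcl6 (-0.97) without unsorted library 1 and for Fezf2 (0.42) and Bcl6 (-1.15) without unsorted library 3. Npr3 and Bcl6, a transcriptional repressor (-1.24), were also lower, and Pou3f1, an extratelencephalic POU factor, had a log2 fold change of -0.46 ± 0.41, adjusted p 0.628.

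Of 11 layer 6 corticothalamic markers tested (14 listed), Rprm, a cell-cycle arrest gene of deep layers (1.00 ± 0.14, adjusted p 6.90e-06), and Tbr1, the T-box factor of layer 6 (0.52 ± 0.08, adjusted p 1.91e-05), were higher, and Ntsr1, the neurotensin receptor used as a corticothalamic marker, was lower (-1.03 ± 0.25, adjusted p 0.01). Foxp2 had a log2 fold change of 0.12 ± 0.23 and Syt6 of -0.67 ± 0.46, both with wide errors and neither called (adjusted p 0.858 and 0.499). The list median was 0.12. Between subtypes Ntsr1 was higher in L6-Npy, at 26.3 CPM, than in L6-Syt6, at 16.6 CPM. Calls were lost for Tbr1 (0.43) and Ntsr1 (-0.88) without unsorted library 2 and for Ntsr1 (-0.75) without the sorted library. After matching on total UMIs, Ntsr1 (-0.64, adjusted p 0.455) was not called.

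Markers of layer 6 intratelencephalic and claustrum-like neurons showed the lowest median among the layer lists. Of 7 tested (10 listed), 4 were lower and none higher, and the median was -0.85. The 4 were Oprk1, the kappa opioid receptor (-1.51 ± 0.33, SE), Npy, neuropeptide Y (-1.23 ± 0.37), Synpr, the vesicle protein synaptoporin (-1.14 ± 0.16), and Gnb4, a G-protein beta subunit (-0.85 ± 0.13). Between subtypes Synpr was at 343 CPM in L2/3-Rorb, 29.0 CPM in L5-S100b and 12.7 CPM in L6-Npy, so here it did not mark layer 6 neurons. Oprk1 was at 13.2, 9.82, 8.84 and 5.26 CPM in barcode-zero and 3.61, 1.84, 4.40 and 3.37 CPM in barcode-high neurons, without overlap. Npy was lower in 3 of 4 libraries, 1 neuron held 25.0% of its barcode-zero UMIs, and among neurons with 15000 to 45000 total UMIs its log2 fold change was 0.57 (adjusted p 0.672). No call was made for Oprk1 (-1.32) and Npy (-0.41) without unsorted library 1 and for Oprk1 (-1.30) and Npy (-1.43) without unsorted library 2. With neurons matched on total UMIs, 3 of the list were tested, 1 was called and the median was -0.43, and Gnb4 was then not called (-0.43, adjusted p 0.201).

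In the upper-layer intratelencephalic list, 15 of 19 markers were tested. Cux2 and Calb1, the calcium buffer calbindin (-1.01 ± 0.28), were lower, and Lhx2, a LIM-homeobox factor, was higher, at 79.3, 71.5, 70.6 and 72.4 CPM in barcode-high against 45.4, 45.8, 52.0 and 52.6 CPM in barcode-zero neurons without overlap (0.60 ± 0.11, adjusted p 4.66e-04). Rorb, a nuclear receptor of layer 4 and 5 intratelencephalic neurons, stood at -0.05 ± 0.11 (adjusted p 0.864) with overlapping groups. Tshz2, a near-projecting marker, was at -0.05 ± 0.45 and varied from 1.31 to 12.8 CPM among the barcode-zero libraries. Slc17a7, the vesicular glutamate transporter of cortical excitatory neurons, was higher by 0.26 ± 0.05 (adjusted p 2.91e-04), below the limit for a call. Calb1 was uneven, and in unsorted library 3 its unscaled level was 5.80 CPM at 0 barcode UMIs, 9.76 CPM at 5 to 19 and 5.50 CPM at 20 or more. Leaving out 1 library ended the call for Calb1 (-1.19) without unsorted library 1, for Calb1 (-0.75) without unsorted library 2 and for Calb1 (-0.78) without the sorted library. Matching on total UMIs ended the call of Lhx2 (0.31, adjusted p 0.317) and Calb1 (-0.52, adjusted p 0.626). Lhx2 also missed the call, at 0.48, with barcode-high set at 1 or more UMIs.

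**Figure D3:**
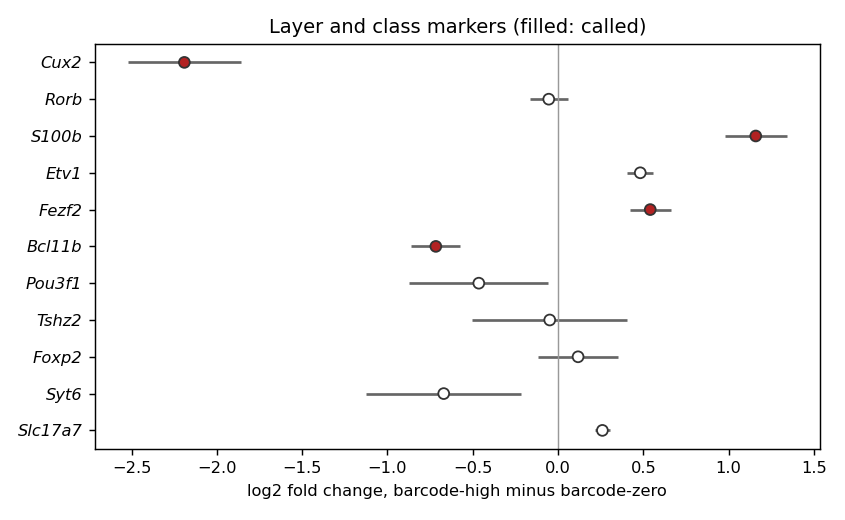
Log2 fold change of barcode-high over barcode-zero L5-S100b neurons (horizontal axis) for 11 layer and class markers, with the standard error of the fit as a bar. Filled points were called. Cux2 and Bcl11b lie left of 0 and S100b and Fezf2 right of it, while Rorb, Tshz2 and Foxp2 lie within 0.2 of 0.

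Immediate early genes are transcribed by neurons within minutes of strong activity. All 18 listed were tested, 17 had a positive log2 fold change, 5 were called higher and none lower, and the median was 0.35. Over all genes tested, 1.1% were called higher. Egr3, a zinc-finger factor, was at 261, 225, 295 and 185 CPM in barcode-zero and 383, 350.0, 359 and 392 CPM in barcode-high neurons with no overlap, a log2 fold change of 0.61 ± 0.08, adjusted p 1.32e-06. Homer1, a postsynaptic scaffold, also separated the groups (0.50 ± 0.06, adjusted p 1.17e-06). Nr4a1, an orphan nuclear receptor (0.56 ± 0.10, adjusted p 5.67e-04), Arc, which controls AMPA receptor traffic (0.52 ± 0.11, adjusted p 0.00269), and Npas4, an activity-regulated factor (0.50 ± 0.12, adjusted p 0.00659), overlapped between the groups. Egr1, a zinc-finger factor, was at 0.34 (adjusted p 3.17e-04) and Fos at 0.17 (adjusted p 0.425), neither called. When neurons were matched on total UMIs, 1 of the 18 was called, Egr3, and the median was 0.29. The slices had been kept in blockers of AMPA and NMDA receptors before dissociation, and in each library both groups came from the same suspension. The test no longer gave a call for Homer1 (0.46) and Arc (0.37) without unsorted library 2 and for Egr3 (0.49), Nr4a1 (0.40) and Arc (0.37) without the sorted library.

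Many immediate early genes are switched on through cAMP response elements. The promoter windows of 3 of the called genes are shown, with the core motif TGACG, or CGTCA on the other strand, in capitals. These 3 were the called genes for which a window was found, and none was found for Egr3 and Arc. Each window runs from 250 bases before to 50 after the RefSeq start in GRCm38.p6, at chr15:101266596-101266895 on the plus strand for Nr4a1, chr13:93303507-93303806 on the plus strand for Homer1 and chr19:4989922-4990221 on the minus strand for Npas4, each written 5′ to 3′.
Nr4a1: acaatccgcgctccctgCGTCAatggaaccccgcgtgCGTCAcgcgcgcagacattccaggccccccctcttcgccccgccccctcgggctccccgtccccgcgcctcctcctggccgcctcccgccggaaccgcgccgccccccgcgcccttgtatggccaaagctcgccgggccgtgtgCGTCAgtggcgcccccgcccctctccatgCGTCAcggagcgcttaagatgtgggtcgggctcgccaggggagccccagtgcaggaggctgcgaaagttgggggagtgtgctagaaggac
Homer1: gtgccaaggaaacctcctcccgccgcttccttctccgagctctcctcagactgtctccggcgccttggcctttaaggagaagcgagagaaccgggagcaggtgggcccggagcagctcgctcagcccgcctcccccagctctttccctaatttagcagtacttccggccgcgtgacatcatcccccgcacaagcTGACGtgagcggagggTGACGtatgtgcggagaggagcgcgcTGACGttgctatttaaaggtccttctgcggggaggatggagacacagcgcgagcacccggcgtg
Npas4: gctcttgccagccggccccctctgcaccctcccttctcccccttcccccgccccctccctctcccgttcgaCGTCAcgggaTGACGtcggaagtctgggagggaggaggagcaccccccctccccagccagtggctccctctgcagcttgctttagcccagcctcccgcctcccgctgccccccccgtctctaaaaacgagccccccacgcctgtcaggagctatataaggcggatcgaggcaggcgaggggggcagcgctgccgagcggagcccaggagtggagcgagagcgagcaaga

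The core motif occurred 4 times in the window of Nr4a1, 3 times in that of Homer1 and 2 times in that of Npas4. Of the 18 immediate early genes, 14 had a window in the table, taking the first listed for each gene, and 11 of these held the core motif (78.6%). It was present in 2986 of 8862 first windows of all tested genes (33.7%) and in 20.8% of all 32851 windows. The full site TGACGTCA, in which the motif on both strands overlaps, was in 2 of the 14 and in 3.62% of the tested genes' windows. These are matches of letters and were not tested as binding sites.

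Axon guidance genes were called more often as lower than as higher, as were all genes tested (184 lower, 1.6%, and 126 higher, 1.1%). Of 39 guidance genes tested (48 listed), 7 were lower and 2 higher, and the median was -0.09. Nrp2, a semaphorin co-receptor, was at 42.9, 62.2, 59.9 and 53.9 CPM in barcode-zero and 20.6, 22.2, 20.5 and 31.5 CPM in barcode-high neurons (-1.22 ± 0.14, adjusted p 2.70e-07). Efnb3, a membrane-bound ephrin, was at 65.2, 79.6, 46.2 and 85.4 CPM and 29.4, 29.0, 30.9 and 34.9 CPM (-1.14 ± 0.13, adjusted p 1.80e-07). Neither gene overlapped between the groups. The related co-receptor Nrp1 moved the other way (1.02 ± 0.27, adjusted p 0.0183), as did Sema7a, a lipid-anchored semaphorin (0.87). The ephrin receptor Epha6 (-1.19), the secreted semaphorins Sema3c (-0.92) and Sema3e (-0.70), the lipid-anchored netrin Ntng1 (-0.80) and the netrin receptor Unc5d (-0.69) were lower. Calls were lost for Nrp1 (0.76) and Epha6 (-1.05) without unsorted library 1, for Nrp1 (1.06) and Epha6 (-1.08) without unsorted library 2 and for Nrp1 (0.89) and Epha6 (-1.16) without the sorted library. After matching on total UMIs, Nrp1 (0.86, adjusted p 0.209) was not called.

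Of 22 cadherins and protocadherins tested (24 listed), Cdh13, Cdh9 (-1.32 ± 0.26, adjusted p 0.00111) and Cdh7 (-0.77 ± 0.23, adjusted p 0.0406) were lower and Cdh6 (1.25 ± 0.30, adjusted p 0.00747) and Pcdh7 (0.93 ± 0.10, adjusted p 7.73e-08) higher. Pcdh7, a protocadherin, stood at 72.7, 58.9, 49.1 and 94.6 CPM in barcode-zero and 144, 116, 111 and 144 CPM in barcode-high neurons, the lowest barcode-high value lying above the highest barcode-zero value. The list median was -0.06, and calls were made in both directions, beside 1.6% of all genes called lower and 1.1% called higher. No call was made for Cdh9 (-1.09) without unsorted library 1 and for Cdh6 (1.05) without unsorted library 3.

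Extracellular matrix and growth factor binding genes had a median of -0.34 over 16 tested of 32 listed, with 4 lower and 2 higher. Over all genes tested, 1.6% were called lower and 1.1% higher. Besides Dcn, the lower genes were the collagens Col23a1 (-1.15 ± 0.23, SE) and Col6a1 (-1.11 ± 0.18) and Nov, a matricellular protein (-0.57). The higher genes were Ccdc80, a matrix-associated protein (0.79 ± 0.19), and the transmembrane collagen Col25a1 (0.68). Leaving out 1 library ended the call for Col23a1 (-0.83) and Ccdc80 (0.66) without unsorted library 2. Matching on total UMIs ended the call of Col23a1 (-0.79, adjusted p 0.155) and Ccdc80 (0.71, adjusted p 0.179).

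Of 17 monoamine and acetylcholine receptors tested (28 listed), Drd1 and Drd2 were lower and Drd5 higher, beside calls for 2.7% of all genes. Drd1 was at 41.3, 43.6, 34.4 and 48.6 CPM in barcode-zero and 26.3, 25.8, 20.5 and 21.8 CPM in barcode-high neurons (-0.81 ± 0.14, adjusted p 1.97e-04), without overlap. The alpha-1A adrenergic receptor Adra1a was lower as well (-1.50 ± 0.31, adjusted p 0.00152). The test no longer gave a call for Drd5 (1.68) without unsorted library 1, for Drd2 (-1.52) and Drd5 (1.85) without unsorted library 2, for Drd5 (1.23) without unsorted library 3 and for Drd5 (1.36) without the sorted library. After matching on total UMIs, Drd1 (-0.54, adjusted p 0.131) was not called. None of the 11 genes of the list that could be tested after matching was called.

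Among 19 neuropeptides and their receptors tested (35 listed), Npy2r, Adcyap1, Vip and Npy1r were lower and Grp was higher, beside calls for 2.7% of all genes. The list median was -0.09, and 0.09 over the 14 tested with neurons matched on total UMIs. Adcyap1, which encodes the peptide PACAP, was at 37.2, 34.9, 54.0 and 35.5 CPM in barcode-zero and 15.4, 20.1, 20.2 and 16.7 CPM in barcode-high neurons (-1.17 ± 0.15, adjusted p 2.23e-06), without overlap. Grp, gastrin-releasing peptide, was higher in 4 of 4 libraries (0.62 ± 0.14, adjusted p 0.00649), although its groups overlapped, with the sorted library lowest in both. Npy1r, the Y1 receptor, was at -0.54. Vip, vasoactive intestinal peptide, was at 2.48, 2.18, 24.5 and 0 CPM in barcode-zero and 2.74, 3.07, 3.96 and 0 CPM in barcode-high neurons (-1.47 ± 0.44, adjusted p 0.0406). A single neuron carried 66.7% of the 30 Vip UMIs of barcode-zero neurons, the direction held in 1 of 4 libraries, and among neurons under 10% mitochondrial UMIs the log2 fold change of Vip was -0.01. Calls were lost for Grp (0.57) without unsorted library 2 and for Grp (0.49) without the sorted library.

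Of 46 potassium channel genes tested (48 listed), Kcnc2, a fast delayed rectifier (1.12 ± 0.18, adjusted p 9.15e-05), and Kcnv1, a silent modulatory subunit (0.65 ± 0.12, adjusted p 4.64e-04), were higher, and Kcnip2, a subunit of A-type channels (-0.62 ± 0.18, adjusted p 0.0331), was lower. Kcnip2 was not lower in the sorted library, with unscaled levels of 13.9 CPM at 0 barcode UMIs, 20.7 CPM at 5 to 19 and 17.5 CPM at 20 or more. Of 29 sodium, calcium and HCN channel genes tested (31 listed), Hcn2, which carries the hyperpolarization-activated current, was higher (0.51 ± 0.14, adjusted p 0.019) and Cacna1h, a T-type calcium channel, lower (-0.71 ± 0.21, adjusted p 0.0343). The medians were 0.08 and 0.08, and 3 of 46 and 2 of 29 genes were called, beside 2.7% of all genes. One of 22 glutamate receptor genes was called, Grin3a, an NMDA receptor subunit (-0.85 ± 0.11, adjusted p 4.35e-06), whose span holds another counted gene on the same strand. Of 28 synaptic organizers tested, Nptx2 was the single call, and of 20 calcium-binding proteins and synaptotagmins it was Hpcal1 (-0.52 ± 0.10, adjusted p 6.17e-04). No call was made for Kcnip2 (-0.44), Hcn2 (0.46), Cacna1h (-0.47) and Hpcal1 (-0.50) without unsorted library 1, for Kcnip2 (-0.66), Hcn2 (0.51), Cacna1h (-0.68) and Hpcal1 (-0.41) without unsorted library 2 and for Kcnip2 (-0.50) and Hcn2 (0.46) without unsorted library 3. Matching on total UMIs ended the call of Kcnv1 (0.60, adjusted p 0.0554), Kcnip2 (-0.50, adjusted p 0.241), Hcn2 (0.54, adjusted p 0.0975), Cacna1h (-0.67, adjusted p 0.24) and Grin3a (-0.46, adjusted p 0.126).

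Cell cycle genes gave 4 calls among 15 tested of 23 listed, beside 2.7% of all genes. Ccnb1, Ccnd1, a G1 cyclin (1.24 ± 0.21, adjusted p 1.66e-04), and Gadd45a, a DNA damage response gene (0.73 ± 0.20, adjusted p 0.0247), were higher, and Cdkn1c, the inhibitor p57 (-0.94 ± 0.14, adjusted p 1.93e-05), was lower. The list median was -0.06, and 0.03 over the 11 tested with neurons matched on total UMIs. Of 15 host factors of adeno-associated virus tested (20 listed), Hs3st1 was called, and the median was 0.06. Leaving out 1 library ended the call for Gadd45a (0.82) without unsorted library 1, for Gadd45a (0.61) and Hs3st1 (1.85) without unsorted library 2, for Hs3st1 (1.74) without unsorted library 3 and for Gadd45a (0.63) without the sorted library.

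In 7 further lists edgeR called no gene. These were near-projecting and layer 6b markers, interferon and antigen presentation, GABA receptors, heat shock and dissociation stress, oxidative phosphorylation, and ribosomal proteins without the Rps6k kinases. Together they held 149 tested genes of 175 listed, of which 25 had an unadjusted p under 0.05 and DESeq2 called 0. Their medians lay between -0.05 and 0.12, leaving out layer 6b with 1 gene tested. With neurons matched on total UMIs, 1 of 12 GABA receptor genes tested was called. The symbol pattern for ribosomal proteins also takes the kinase Rps6ka2, which was lower (-0.57 ± 0.18, adjusted p 0.0467) and is not a ribosomal protein. The test no longer gave a call for Rps6ka2 (-0.59) without unsorted library 1, for Rps6ka2 (-0.64) without unsorted library 2, for Rps6ka2 (-0.59) without unsorted library 3 and for Rps6ka2 (-0.45) without the sorted library. After matching on total UMIs, Rps6ka2 (-0.39, adjusted p 0.467) was not called.

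**Figure D4:**
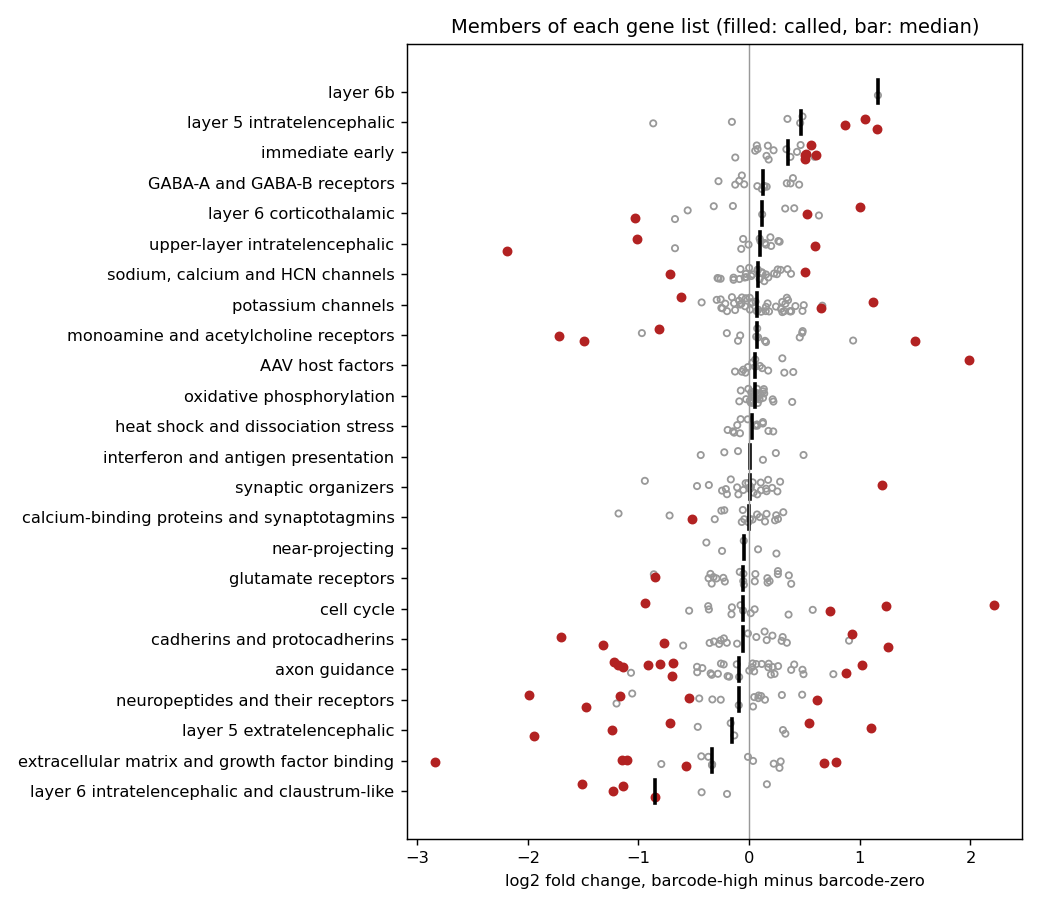
Log2 fold change of barcode-high over barcode-zero L5-S100b neurons (horizontal axis) for the tested members of each gene list except ribosomal proteins (rows, ordered by median). Filled points were called, open points were not, and the black bar is the list median. The median of the immediate early list lies at 0.35 and that of the layer 6 intratelencephalic and claustrum-like list at -0.85.

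Of 42 markers of 8 classes, 11 passed the filter on low counts, 2 were called and both were lower, Vip and Dcn. The 8 inhibitory neuron markers summed to 0.414 to 10.6 CPM over the barcode-high and 0 to 38.7 CPM over the barcode-zero libraries, and in barcode-zero neurons Slc32a1, Lhx6 and Pvalb were at 0. Fibroblast markers summed to 0.567 to 2.34 and 4.84 to 14.0 CPM, and in the barcode-zero neurons the other 4, Col1a1, Col1a2, Lum and Igf2, were at 0, so that the sum was Dcn alone. Microglial markers summed to 2.76 to 18.7 and 0 to 13.5 CPM, and those of astrocytes to 4.41 to 6.22 and 1.39 to 9.05 CPM. Oligodendrocyte markers had the highest sums of the 8 classes, at 129 to 133 and 122 to 131 CPM. Precursor, endothelial and mural markers stayed under 11.1 CPM in sum in every library and group. The part of such RNA in the results was not tested.

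The called genes differed in the subtype in which they were otherwise most abundant. By the mean of the unsorted libraries, L6-Npy was the highest of the other 6 subtypes for 51 of the 184 lower genes (27.7%), for 8 of the 126 higher genes (6.35%) and for 1112 of all 11477 tested (9.69%). L2/3-Rorb was the highest for 33 of the higher genes (26.2%) and 16.0% of all. L6-Syt6 was the highest for 25 higher genes (19.8%), 7 lower genes (3.80%) and 13.9% of all. L5-S100b itself exceeded every other subtype for 32 higher genes (25.4%), 4 lower genes (2.17%) and 8.96% of all. Dcn, for instance, was at 41.3 CPM in L6-Npy and 2.32 CPM in L5-S100b, Npy2r at 58.7 and 5.71 CPM, and Oprk1 at 90.1 and 4.51 CPM. These shares describe the lists and carry no test.

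The neurons with 1 to 4 barcode UMIs were set against the same barcode-zero neurons to see how few barcode molecules went with a difference. This comparison shares its barcode-zero neurons with the main one, so the values of the pair are given side by side and not correlated. Of 9276 genes, 4 were called, 0.0431% of those tested, and 516 had an unadjusted p under 0.05. DESeq2 called none, with 55 genes at an unadjusted p under 0.05. Leaving out a library gave between 0 and 17 calls. None of the 4 genes stayed called without unsorted library 1 or without unsorted library 2.

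Rorb was at 69.0, 47.9, 103 and 75.1 CPM in barcode-zero neurons of unsorted libraries 1 to 3 and the sorted library and at 110.2, 145, 128 and 105 CPM in those with 1 to 4 barcode UMIs. The groups did not overlap, and the log2 fold change was 0.73 ± 0.13, adjusted p 0.0195, against -0.05 in barcode-high neurons. Serpine2 was higher by 1.23 ± 0.23, adjusted p 0.0195, against 1.40. Cbln2, a secreted synaptic organizer, was higher by 1.25 ± 0.24, adjusted p 0.0255, against 0.26, and Lypd1, a modulator of nicotinic receptors, was lower, at -0.92 ± 0.18, adjusted p 0.0255, against -0.39 and not called in barcode-high neurons (adjusted p 0.181). Cdh13 and Npy2r, which differed in barcode-high neurons, had log2 fold changes of -0.22 and 0.00 here.

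The barcode-high neurons were then divided, with 549 at 20 or more barcode UMIs and 409 at 5 to 19. No barcode-zero neuron enters this comparison, but both ranges are the barcode-high neurons of the main one. Of 11319 genes, 158 were called (1.4%), 65 higher (0.574%) and 93 lower (0.822%) in the neurons with more barcode. Without unsorted library 3, 107 genes were called.

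Npy2r was at 6.85, 3.39, 8.97 and 5.39 CPM at 5 to 19 barcode UMIs and at 0.951, 2.37, 0.632 and 2.75 CPM at 20 or more, without overlap. Its log2 fold change was -1.88 ± 0.37, adjusted p 4.72e-04. Oprk1 (-1.93 ± 0.36, adjusted p 1.86e-04), Fst, the activin-binding protein follistatin (-1.77 ± 0.35, adjusted p 5.47e-04), Sertm1 (-1.72 ± 0.29, adjusted p 3.57e-05) and Brinp3 (-1.61 ± 0.21, adjusted p 2.87e-07) completed the 5 lowest. Cdh13 (-1.29 ± 0.09, adjusted p 2.12e-14), Gnb4 (-1.08 ± 0.11, adjusted p 1.06e-09) and Col6a1 (-1.30 ± 0.14, adjusted p 2.85e-09) were lower as well. The 5 highest were B3gnt8, a glycosyltransferase (1.54 ± 0.40, adjusted p 0.0111), Chac1, a glutathione-degrading enzyme (1.25 ± 0.30, adjusted p 0.00516), Arhgef40 (1.14), Rgs10 (1.10) and Raver2 (1.00). Arhgef40 was higher in 2 of 4 libraries, with 23.5 CPM in unsorted library 2.

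Of the 18 immediate early genes, 16 were positive at 20 or more barcode UMIs and 6 were called, Egr2 (0.90), Npas4 (0.90), Egr4 (0.83), Arc (0.70), Dusp1 (0.68) and Btg2 (0.68), with a list median of 0.42. Over all genes of that comparison, 0.574% were called higher. Between 1 to 4 and 0 barcode UMIs, 7 of the 18 were positive, edgeR and DESeq2 called none, 6 had an unadjusted p under 0.05, and the median was -0.05. Arc was at 117, 125, 112 and 169.6 CPM at 5 to 19 barcode UMIs and 192, 207, 199.7 and 254 CPM at 20 or more (adjusted p 8.64e-14). All 4 of the latter exceeded all 4 of the former. In the heat shock and dissociation stress list edgeR called none of 14, with 5 at an unadjusted p under 0.05 and 0 called by DESeq2, and the median was 0.07.

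Over the 4 ranges of barcode UMIs (0, 1 to 4, 5 to 19, and 20 or more), genes took different courses. As unscaled CPM (mean ± SD, 4 libraries), Cdh13 was at 187 ± 52.6, 164 ± 69.6, 87.0 ± 14.0 and 35.1 ± 9.68 CPM, with values at 0 and at 1 to 4 within each other's spread and lower values above. Npy2r was at 13.9 ± 7.71, 13.8 ± 4.39, 6.17 ± 2.28 and 1.67 ± 1.06 CPM and Brinp3 at 27.3 ± 9.61, 31.9 ± 9.97, 13.8 ± 1.96 and 4.34 ± 1.54 CPM, each within its spread between 0 and 1 to 4 and lower above. Pcp4 was at 533 ± 111, 781 ± 272, 964 ± 23.6 and 1197 ± 116 CPM, and Serpine2 was at 13.2 ± 3.30, 31.4 ± 11.1, 30.9 ± 4.36 and 36.7 ± 4.92 CPM. In the 3 unsorted libraries Serpine2 stepped up between 0 and 1 to 4, and in the sorted library between 1 to 4 (16.8 CPM) and 5 to 19 (36.7 CPM). Rorb peaked at 1 to 4, at 72.6 ± 21.7, 120.0 ± 15.1, 78.0 ± 6.22 and 60.9 ± 7.61 CPM. Etv1 was at 356 ± 79.1, 293 ± 41.5, 404 ± 86.7 and 549 ± 88.1 CPM and Arc at 124 ± 38.4, 118 ± 14.5, 132 ± 31.5 and 211 ± 33.0 CPM, both with their highest value in the last range. The median total UMIs per neuron were 22441, 24719, 27611 and 29730.0 over the same ranges, all libraries together, though in unsorted library 2 they were lower at 1 to 4 than at 0.

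**Figure D5:**
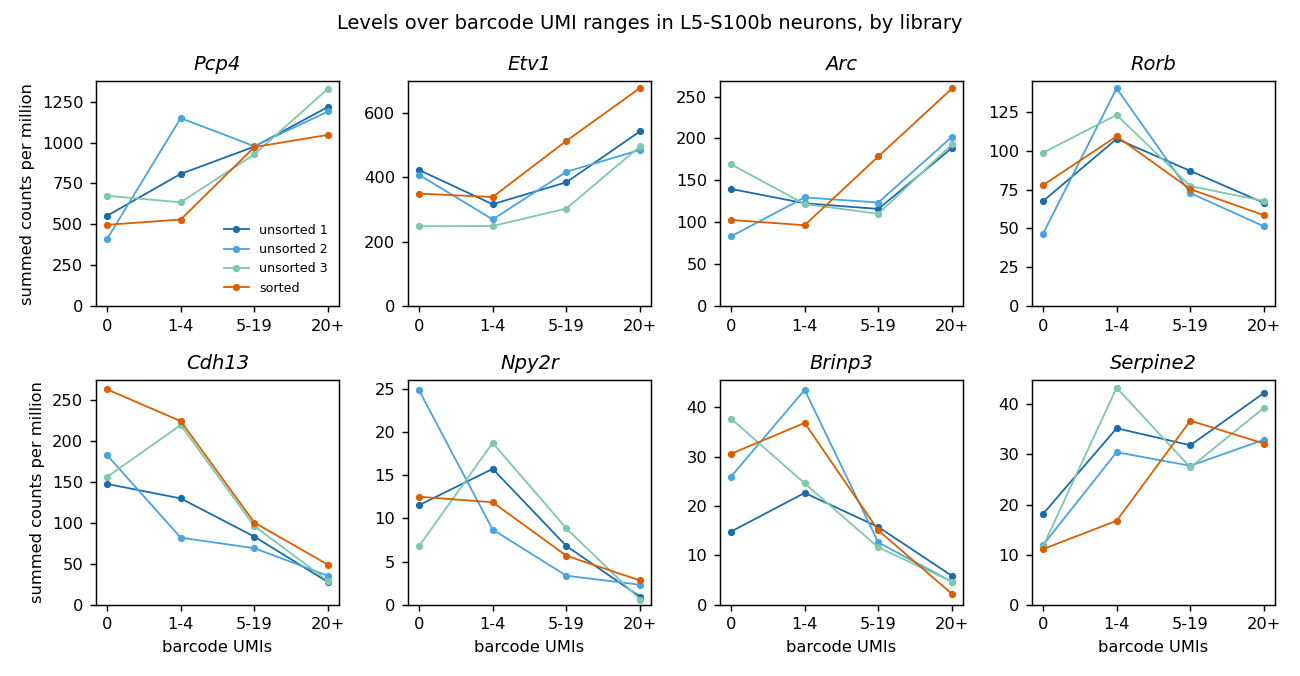
Level in unscaled CPM (vertical axis, from 0) of 8 genes in L5-S100b neurons over ranges of barcode UMIs (horizontal axis), with 1 line for each library. Cdh13, Npy2r and Brinp3 are lowest at 20 or more barcode UMIs in each library, while Rorb is highest at 1 to 4 in each library.

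How the difference in L5-S100b compared with that in other subtypes was tested with an interaction term against 2 other subtypes, L6-Npy (535 barcode-high and 232 barcode-zero neurons) and L2/3-Rorb (453 and 126). The difference between barcode groups departed from that in L6-Npy for 125 of 11047 genes (1.13%) and from that in L2/3-Rorb for 75 (0.679%). Without unsorted library 2 these counts were 74 and 30, and without unsorted library 3 they were 100 and 47. Both interactions use the same L5-S100b neurons. Genes named for their difference in L5-S100b have interactions that this choice pushes toward the same sign.

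Cdh13 was at -1.70 ± 0.08 in L5-S100b, and its log2 fold change was -0.19 in L6-Npy and -0.37 in L2/3-Rorb. The interactions were -1.51 ± 0.11, adjusted p 2.60e-14 and -1.35 ± 0.18, adjusted p 4.93e-06. Deptor, at 1.05 in L5-S100b, was at -0.34 and 0.14, with interactions of 1.38 ± 0.21, adjusted p 2.97e-05 and 0.90 ± 0.16, adjusted p 7.45e-04. Serpine2 had a value of 1.40 here, of -0.57 among L6-Npy and of -0.66 among L2/3-Rorb neurons. Serpine2, Ptn, Tbr1, Brinp3, Efnb3 and Grp passed both tests.

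Pcp4 was higher in L2/3-Rorb as well, at 0.46 (adjusted p 4.25e-07), and stood at 0.20 in L6-Npy (adjusted p 0.485), with interactions of 0.90 ± 0.12, adjusted p 3.69e-06 against L6-Npy and 0.62 ± 0.11, adjusted p 2.80e-04 against L2/3-Rorb. Npy2r was lower in L6-Npy too, at -0.50 (adjusted p 0.00398), and its loss in L5-S100b was larger (interaction -1.49 ± 0.31, adjusted p 0.00292). Pcdh7 had log2 fold changes of 0.93 in L5-S100b, 0.07 among L6-Npy and 0.88 among L2/3-Rorb neurons, and its interaction was 0.85 ± 0.12, adjusted p 1.43e-05 against L6-Npy and 0.04 ± 0.20, adjusted p 0.982 against L2/3-Rorb. For Grp, lower in L2/3-Rorb at -0.85, the interactions were 1.03 ± 0.23, adjusted p 0.0056 and 1.45 ± 0.21, adjusted p 2.02e-05.

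Among the genes with the highest interaction against L6-Npy were Ccnb1 (2.56), Arhgap25 (2.08), Serpine2 (1.97) and Foxo1, a forkhead factor (1.41), and the lowest were Ece2, Unc13c, Neb, Cd24a and Cdkn1c, from -3.11 to -2.08. Against L2/3-Rorb the highest were Serpine2, Fam19a2, Cd34 (1.54), Grp and Foxo1, and the lowest were Sst (-2.76), Ndrg1, Nedd9, Cux2 and Csrp2 (-1.84). Of the immediate early genes Nr4a1, Arc, Egr3 and Homer1, 3 were called higher in L6-Npy as well, with Nr4a1 at 1.08 (adjusted p 6.99e-07), Arc at 0.85 (adjusted p 2.12e-05) and Egr3 at 0.57 (adjusted p 7.67e-06), against 0.56, 0.52 and 0.61 in L5-S100b, while Homer1 was at 0.35 (adjusted p 0.00131) against 0.50. In L2/3-Rorb Nr4a1, Arc, Egr3 and Homer1 stood at 0.49, 0.44, 0.32 and 0.23, none of them called. None of the 4 passed either interaction, with values from -0.52 to 0.27, which does not show that the subtypes act alike.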

How the data were processed

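Single-cell libraries were made with the 10x Genomics Chromium 3' chemistry from microdissected vmPFC. The authors aligned and counted reads with Cell Ranger 3.0.2 against mm10 with the projection barcodes added and deposited raw UMI counts per gene and cell, with no normalization. They kept cells by numbers of genes and UMIs and by the deposited percent of mitochondrial UMIs, and deposited a subtype label for each excitatory neuron. The barcode row was taken as the sum over viruses, which was not tested. No doublet caller was run here.

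Members and gene lists were chosen with earlier results of these data known. Counts were summed per library and group, filtered with filterByExpr, scaled by TMM, and fitted with edgeR 4.0.16 in R 4.3.3 (glmQLFit and glmQLFTest, library as block, since both groups came from the same mice of each library). Levels are CPM of these sums with TMM scaling, except over the 4 ranges of barcode UMIs and between subtypes. Each adjusted p was taken over all genes tested. Replicates are 3 mice and 1 pool. Error bars and SE cover these 4 libraries, and UMI shares carry counting error as well. Cell Ranger drops reads that fit several genes, so close paralogs are uncertain. Expected shares after thinning to 10000 UMIs were computed exactly and leave out shallower neurons. Promoter windows are RefSeq's, GRCm38.p6, and gene positions are from GENCODE M21, matched on gene identifiers. The test was checked on simulated data.

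Named genes were the 12 highest and 12 lowest called with 1 sign in 4 libraries, up to 4 called members of each list by size, 11 layer markers, and the 5 highest and 5 lowest calls of each other comparison. List members called beyond these, and Egr1, Fos and the genes called at 20 or more barcode UMIs, were named after their values were seen. One gene that the rule takes is not reported here. Alternatives were RLE size factors, DESeq2 1.42.0, no filter on low counts, no library block, leaving out each library, barcode-high at 1 or 10 or more UMIs, a window of 15000 to 45000 UMIs, matching on total UMIs, and under 10% mitochondrial UMIs.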

Additional observations from a re-analysis of the deposited data

Results flagged for a closer look

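For some genes the difference between barcode-high and barcode-zero neurons in L5-S100b departed from that in the subtypes set beside it, by edgeR's test of the interaction. DESeq2 gave 63 such genes against L6-Npy and 35 against L2/3-Rorb. Without unsorted library 2 edgeR gave 74 and 30, and without unsorted library 3 it gave 100 and 47. The 24 genes named from below were chosen for their difference in L5-S100b. That difference is part of each interaction, so selection pushes their interactions toward its sign. Against L6-Npy, 125 genes passed, and among the 24 genes with the highest and lowest log2 fold changes they were Dcn (-2.04, adjusted p 0.00151), Npy2r (-1.49, adjusted p 0.00292), Npr3 (-1.40, adjusted p 0.0223), Drd2 (-1.65, adjusted p 0.0329), Cdh13 (-1.51, adjusted p 2.60e-14), Brinp3 (-1.74, adjusted p 1.81e-04), Ece2 (-3.11, adjusted p 0.0171), Arhgap25 (2.08, adjusted p 0.0111), Ccnb1 (2.56, adjusted p 2.55e-05) and Serpine2 (1.97, adjusted p 1.20e-04), each value being the log2 difference in L5-S100b minus that in L6-Npy. Against L2/3-Rorb, 75 genes passed, and among the 24 they were Cux2 (-1.85, adjusted p 3.96e-04), Csrp2 (-1.84, adjusted p 0.0473), Cdh13 (-1.35, adjusted p 4.93e-06), Brinp3 (-1.28, adjusted p 0.0145), Serpine2 (2.06, adjusted p 8.49e-04) and Fam19a2 (1.92, adjusted p 0.00579).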

How the results depend on the processing

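Of the 71 called genes among those named, 17 kept the call under every alternative that tested them, 13 of them in all 13 alternatives (Adcyap1, Brinp3, Cdh13, Deptor, Efnb3, Gpx3, Inf2, Kcnc2, Nptx2, Nrp2, Pcdh7, Pcp4 and Serpine2). Matching neurons on total UMIs tested 45 of the 71, of which 26 stayed called, and DESeq2 kept 44. Among the genes that DESeq2 did not call were S100b (adjusted p 0.173), Arc (0.470), Bcl6 (0.268), Ntsr1 (0.138), Nrp1 (0.216) and Fezf2 (0.0792). Npy reversed to 0.57 among neurons with 15000 to 45000 UMIs. In the main comparison 310 genes became 145 with DESeq2, 141 when matched on total UMIs, 202 with barcode-high set at 1 or more UMIs, and 178 to 289 on leaving out a library (178 without unsorted library 2). RLE size factors, no filter on low counts, a limit of 10 barcode UMIs, the UMI window and the mitochondrial limit gave 309, 355, 380, 278 and 326.

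Without the replicate block the counts were 56 for the main comparison, 0 for 1 to 4 against 0 barcode UMIs, 11 for 20 or more against 5 to 19, 6 for the interaction with L6-Npy and 2 for that with L2/3-Rorb. For 1 to 4 against 0, DESeq2 gave 0, no filter gave 19 and leaving out a library 0 to 17 (0 without unsorted library 1, 1 without unsorted library 2, 9 without unsorted library 3 and 17 without the sorted library). For 20 or more against 5 to 19, DESeq2 gave 48 and leaving out a library 107 to 177. For the interactions DESeq2 gave 63 and 35, and leaving out a library 74 to 136 (74 without unsorted library 2) and 30 to 84 (30 without unsorted library 2 and 47 without unsorted library 3). The cause was not tested. Between 24 and 74 barcode-zero neurons stood behind each library's value.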
